A study of Mus musculus with 6 samples.

Results

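The 9 genes described here act in the exit of lymphocytes from tissue and in their positioning within it, and were followed in sorted lymphocytes of the mouse mammary gland. They were taken by symbol from a table of 55450 genes: the sphingosine-1-phosphate (S1P) receptor genes S1pr1, S1pr4 and S1pr5, the S1P receptor antagonist Cd69, and the lipid-sensing receptor genes Gpr183, Gpr55, Gpr18, Ptger4 and Ptger2. All 9 were found and all 9 passed the filter on low counts, which 13171 genes passed. The study is about maternal lymphocytes of the mammary epithelium and milk production. Bulk RNA sequencing was done on 3 libraries of CD8 beta+ T cells and 3 libraries of double negative (DN) NK1.1+ lymphocytes, which were sorted from glands of late pregnancy (E18.5) and made with the Tecan Solo mouse kit. The labels do not name the markers that the DN cells lack, and the library titles call them T cells where the cell type field says lymphocytes. The labels give no strain, genotype, age or pooling of animals. Since they do not tie replicates to separate animals, each p-value below refers only to the spread among these libraries, which may be technical.

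S1P is abundant in blood and lymph and scarce within tissue, and lymphocytes follow this gradient out of tissue through S1PR1. CD69, a surface protein induced on activation and kept on many tissue-resident lymphocytes, binds S1PR1 and causes its removal from the surface. Transcription of S1pr1 depends on the factor KLF2, which in turn depends on FOXO1. S1PR5 serves the exit of natural killer (NK) cells, and GPR183 (EBI2) guides cells towards oxysterols. GPR55 responds to lysophospholipids, GPR18 is a receptor of intra-epithelial lymphocytes with debated ligands, and the products of Ptger2 and Ptger4, EP2 and EP4, are receptors of prostaglandin E2 that raise cyclic AMP.

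Libraries held 7961360 to 14367299 counts, and 1 count was worth 0.0722 to 0.13 CPM, the depth-scaled count used below for levels. Libraries were labelled in accord with their sort genes. Cd8b1, for the CD8 beta chain, was at 949 ± 57.8 CPM in the CD8 beta+ group and 2.57 ± 1.58 CPM in the DN NK1.1+ group, and Klrb1c, for NK1.1, at 37.1 ± 5.69 and 639 ± 20.8 CPM (mean ± SD, n = 3 per group here and below, CD8 beta+ first). Cd8a was at 911 ± 85.8 and 162 ± 11.6 CPM, and Cd4 was low in both, at 2.15 ± 2.54 and 1.36 ± 0.765 CPM. Both groups held Ptprc, the pan-leukocyte gene, at 2435 ± 76.4 and 2543 ± 220 CPM. Cd3e was at 765 ± 19.4 and 522 ± 7.47 CPM and Ncr1, for the NK receptor NKp46, at 0.485 ± 0.182 and 273 ± 20.6 CPM, so the DN NK1.1+ libraries held transcripts of T cells and of NK cells. In bulk libraries, fewer cells of a type and less RNA per cell cannot be told apart. Other marker lists are given below beside single receptor genes, whether or not they changed alike. Genes of mammary cells were found in both groups. Of 10 tested luminal and milk genes 1 was higher, Epcam, and 0 lower. The list summed to 664 to 994 and 378 to 2072 CPM, led by Csn2. Csn2 spread widely in DN NK1.1+ libraries, with a coefficient of variation of 21.0% and 81.6%. Epcam did not share this spread, at 4.02 to 7.41 and 30.8 to 32.8 CPM (29.7% and 3.26%). Of 8 tested myoepithelial and 6 tested fibroblast and adipocyte genes 0 passed, and both lists spread widely. Myoepithelial genes summed to 17.2 to 169 and 12.1 to 225 CPM, led by Acta2. Fibroblast and adipocyte genes summed to 11.3 to 187 and 4.36 to 169 CPM, led by Col3a1.

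Of the 9 genes, 4 were lower in DN NK1.1+ libraries and 0 were higher. These were S1pr1, Gpr183, Gpr55 and S1pr4, by 3.61-fold, 3.30-fold, 2.35-fold and 1.54-fold. Over all tested genes, 5.99% were lower and 7.84% higher by the same rule (adjusted p under 0.05, edgeR quasi-likelihood test with Benjamini-Hochberg adjustment over 13171 genes), against 44.4% of the members lower. In the same 4 genes every DN NK1.1+ library lay below every CD8 beta+ library, which held for 14.6% of all tested genes; 16.0% lay apart in the higher direction and 30.6% in either. By at least 3-fold, S1pr1 and Gpr183 were called lower, as were 1.40% of all tested genes. In either direction, 13.8% of all tested genes were called. The groups overlapped in the other 5 genes, and 0 of these passed the test. The fitted fold change was below 0 for all 9 genes, where its median over all tested genes was −0.003 on the log2 scale. For S1pr5 and Gpr18 it was only −0.06, and its sign turned in 3 and 1 of 14 alternatives. At an unadjusted p under 0.05, Ptger4 would be added to the lower genes and 0 would be higher. DESeq2 and limma-voom each called 4 members lower and 0 higher.

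**Figure D1:**
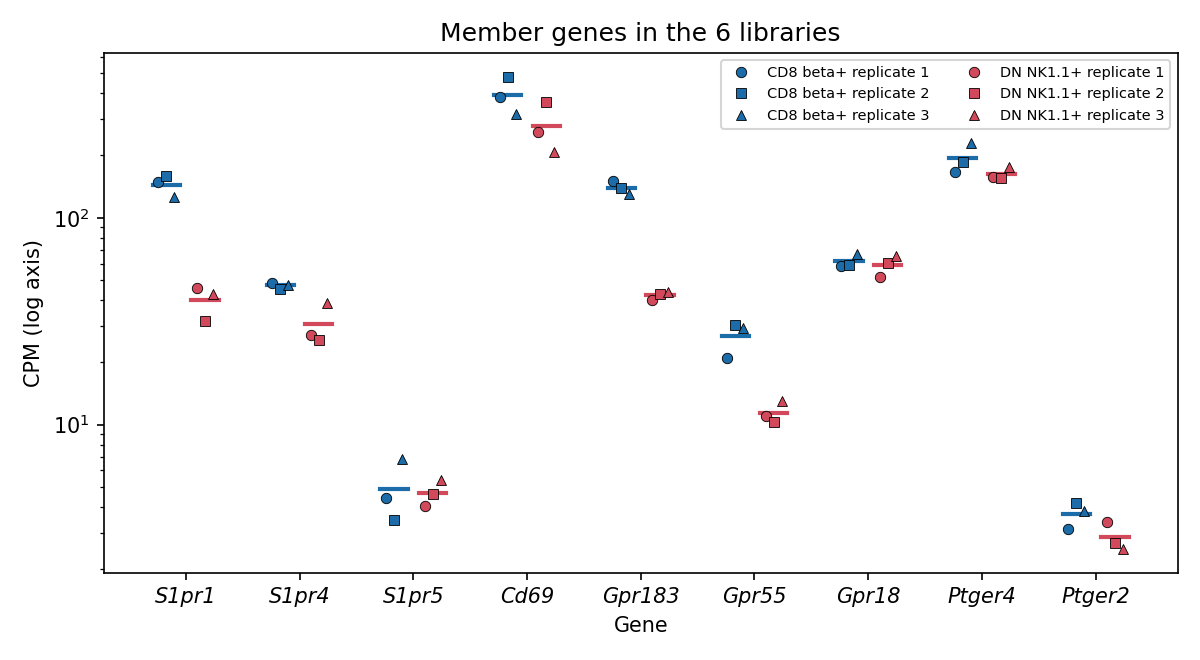
CPM on a log axis for the 9 genes in each of the 6 libraries, with CD8 beta+ libraries in blue, DN NK1.1+ libraries in red, marker shapes for the replicate numbers and bars for the group means. The red points lie apart below the blue points for S1pr1, S1pr4, Gpr183 and Gpr55, and overlap them for the other 5 genes.

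Among the S1P receptors, S1pr1 had the largest fitted decrease of the 9 genes. It was at 148, 159.6 and 126 CPM in CD8 beta+ replicates 1, 2 and 3 and at 45.6, 31.8 and 42.9 CPM in DN NK1.1+ replicates 1, 2 and 3. The groups did not overlap, and the lowest CD8 beta+ library, replicate 3, was well above the highest DN NK1.1+ library, replicate 1. The log2 fold change was −1.85 (SE 0.142, edgeR adjusted p = 3.37e-07). S1pr1 (ENSMUSG00000045092) lies on chromosome 3 from 115710433 to 115715072 (GENCODE M21, mm10), on the minus strand, and no other annotated gene overlaps it. Markers of naive and recirculating T cells moved with it: 6 of 10 were lower and 0 higher. Klf3, for a relative of KLF2, was at 364 to 389 and 157 to 178 CPM, and Ccr7, for the chemokine receptor of lymph node entry, at 91.6, 93.1 and 25.9 CPM and 3.64 to 4.86 CPM. The Ccr7 call ended without any one DN NK1.1+ library (edgeR adjusted p = 0.09 to 0.0915). The summed level of the 10 markers was 2535, 2537 and 1289 CPM in CD8 beta+ libraries and 1117 to 1280 CPM in DN NK1.1+ libraries. CD8 beta+ replicate 3 was thus close to the DN NK1.1+ libraries in this sum and not in S1pr1. Without that library the log2 fold change of S1pr1 was −1.95.

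The regulators of S1pr1 named above were lower too. Klf2 was at 103, 111 and 74.8 CPM in CD8 beta+ libraries and at 47.2, 64.4 and 56.6 CPM in DN NK1.1+ libraries (log2 fold change −0.78, SE 0.156, edgeR adjusted p = 0.00364). Foxo1 was at 303 ± 37.7 and 176 ± 7.44 CPM (−0.78, SE 0.104, edgeR adjusted p = 8.34e-05). Their groups did not overlap, and both decreases were smaller than that of S1pr1 on the log2 scale. The difference between these decreases was not tested.

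S1pr4, for a receptor of T cells and other leukocytes that does not serve tissue exit in the way of S1PR1, was at 48.6, 45.4 and 47.5 CPM in CD8 beta+ libraries and at 27.2, 25.6 and 38.8 CPM in DN NK1.1+ libraries. The CD8 beta+ libraries lay close together, with a coefficient of variation of 3.40%, and DN NK1.1+ replicate 3 lay above the others of its group. The log2 fold change was −0.63 (SE 0.168, edgeR adjusted p = 0.02). This call was the only one of the 4 to end in any alternative: it ended without CD8 beta+ replicate 1 (edgeR adjusted p = 0.0792), CD8 beta+ replicate 2 (0.0568), DN NK1.1+ replicate 1 (0.092) or DN NK1.1+ replicate 2 (0.0943), with a range of 0.00179 to 0.0943 over all alternatives. S1pr4 (ENSMUSG00000044199) lies on chromosome 10 from 81497747 to 81500132, on the minus strand.

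Both groups held little S1pr5, at 4.42, 3.47 and 6.80 CPM in CD8 beta+ libraries and at 4.05, 4.61 and 5.39 CPM in DN NK1.1+ libraries. All 3 DN NK1.1+ values lay within the CD8 beta+ range. These values rest on 34 to 71 counts per library. The log2 fold change was −0.06 with an SE of 0.399 (edgeR adjusted p = 0.953), so a change of moderate size in either direction could not be detected at this depth. Of 8 markers of mature NK cells, 4 were higher (Itgam, Cma1, Prf1 and Zeb2) and 2 lower (Cx3cr1 and Klf2). Itgam, for the integrin CD11b, was at 9.09 ± 1.25 and 108 ± 11.8 CPM, and Cx3cr1, for a chemokine receptor, at 30.8 ± 11.3 and 10.7 ± 0.369 CPM. The Zeb2 call ended without CD8 beta+ replicate 1 or 2 (edgeR adjusted p = 0.0511 in both). The list summed to 544 to 593 and 706 to 778 CPM, and its most abundant member was Spn, at 269 ± 21.9 and 243 ± 32.7 CPM (edgeR adjusted p = 0.464). S1pr5 (ENSMUSG00000045087) lies on chromosome 9 from 21242912 to 21248443, on the minus strand, and shares 51 exonic bases with Gm48303, which had 0 counts in all 6 libraries.

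The receptors of the same family outside the 9 genes were S1pr2 and S1pr3, of which S1pr3 changed most of all genes in the surrounding pathway lists. S1pr3 was at 2.08, 0.506 and 1.55 CPM in CD8 beta+ libraries and at 23.9, 15.3 and 19.0 CPM in DN NK1.1+ libraries. It was higher by 3.89 on the log2 scale (SE 0.406, edgeR adjusted p = 9.71e-06), with no overlap. S1pr2 was at 14.04 ± 1.04 and 16.2 ± 2.82 CPM (edgeR adjusted p = 0.636). S1PR3 is best known from endothelial, smooth muscle and myeloid cells. Of 12 endothelial markers, 6 were tested, 1 was higher (Pecam1, which leukocytes also carry, at 31.8 ± 8.05 and 58.9 ± 9.51 CPM) and 0 were lower. The median log2 fold change of the 6 tested was 0.81. The list summed to 36.0 to 50.7 CPM in CD8 beta+ libraries and 49.4 to 89.4 CPM in DN NK1.1+ libraries. In DN NK1.1+ replicate 2, where S1pr3 was at 15.3 CPM, 9 of the 12 endothelial markers had 0 counts, Cdh5, Kdr and Tek among them, and Pecam1 had 572, Plvap 14 and Emcn 4 counts. Of 14 myeloid markers, 2 of 12 tested were higher (Itgax and Csf1r) and 0 lower, with a median log2 fold change of 0.83. The myeloid list summed to 194 to 298 and 390 to 487 CPM. Its largest member Itgax, which lymphocytes also carry, was at 102 to 130.3 and 258 to 280 CPM. Csf1r, the macrophage growth factor receptor, was at 12.7 to 19.7 and 21.4 to 38.7 CPM (edgeR adjusted p = 0.026, lost without CD8 beta+ replicate 1 or 2 or DN NK1.1+ replicate 1, at 0.137, 0.121 and 0.181), and Adgre1, for F4/80, at 2.21 to 7.62 and 4.17 to 6.98 CPM. The smooth muscle and myoepithelial genes Acta2 and Myh11 were highest in replicate 3 of both groups. Acta2 was at 11.2, 8.09 and 75.9 CPM and at 5.95, 8.55 and 94.1 CPM. Myh11 was at 2.99, 2.82 and 29.0 CPM and at 2.33, 5.03 and 57.7 CPM. The part of endothelial, smooth muscle or myeloid cells in the S1pr3 level was not tested.

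Per kilobase of merged exons, a scale on which genes can be compared, the 5 S1P receptor genes together were at 71.3 ± 4.62 CPM per kb in CD8 beta+ libraries and 34.2 ± 5.59 CPM per kb in DN NK1.1+ libraries. S1pr1 made up 66.7, 70.0 and 62.7% of that sum in CD8 beta+ libraries and 42.4, 37.1 and 36.0% in DN NK1.1+ libraries. S1pr4 made up 27.8 ± 2.34% and 37.3 ± 4.72%. S1pr3 made up 0.438 ± 0.255% and 12.7 ± 2.18%, S1pr2 2.47 ± 0.147% and 5.93 ± 0.212%, and S1pr5 2.80 ± 1.18% and 5.55 ± 0.986%. Transcripts of S1pr1 were thus the largest share in every CD8 beta+ library, whereas in DN NK1.1+ libraries S1pr1 and S1pr4 took similar shares, and S1pr4 the larger one in replicates 2 and 3. These shares are a description without a test.

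**Figure D2:**
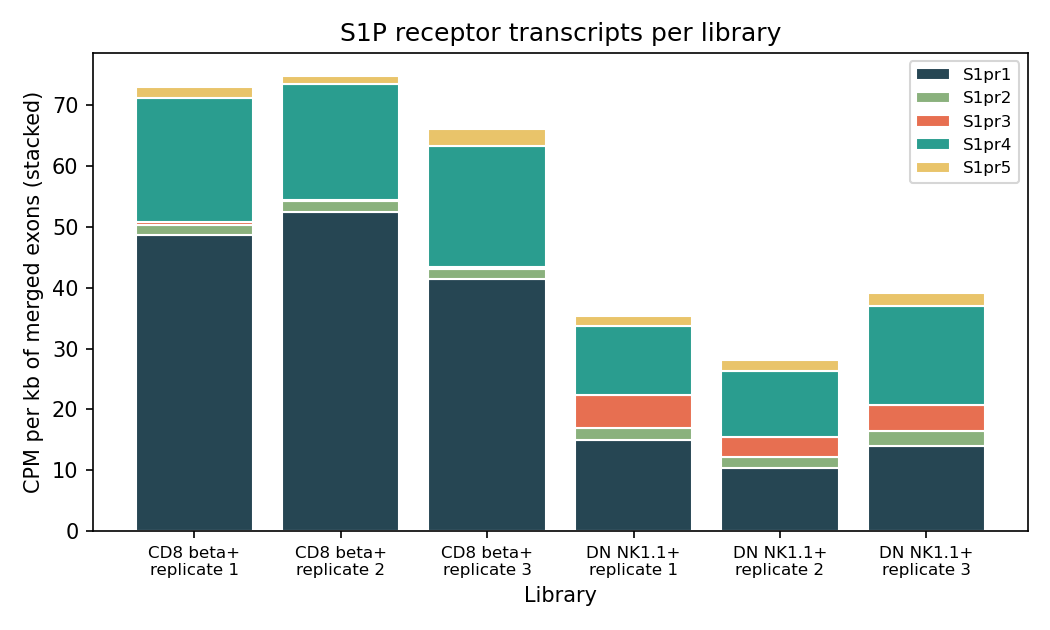
Stacked levels of the 5 S1P receptor genes, as CPM per kb of merged exons, in each library. The total is lower in all 3 DN NK1.1+ libraries, the S1pr1 part shrinks from 62.7% or more to 42.4% or less, and the S1pr3 part grows from 0.639% or less to 10.9% or more.

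Cd69 had the highest level per kilobase of the 9 genes in both groups. It was at 383, 481 and 316 CPM in CD8 beta+ replicates 1, 2 and 3 and at 261, 362 and 209 CPM in DN NK1.1+ replicates 1, 2 and 3. The groups overlapped, since DN NK1.1+ replicate 2 lay above CD8 beta+ replicate 3. The spread within groups was wide, with a coefficient of variation of 21.2% and 28.1%. In both groups replicate 2 was the highest and replicate 3 the lowest. Within each replicate number, the DN NK1.1+ library was below the CD8 beta+ library. Whether this shared order comes from a common source of same-numbered libraries was not tested. The log2 fold change was −0.51 (SE 0.242) and did not pass the test (edgeR adjusted p = 0.272, unadjusted p = 0.0795). It passed without DN NK1.1+ replicate 2 (log2 fold change −0.75, edgeR adjusted p = 0.0284), without a filter on low counts (adjusted p = 0.00767) and with the replicate number as a block (adjusted p = 5.17e-04), and the range over all alternatives was 5.17e-04 to 0.479. Cd69 (ENSMUSG00000030156) lies on chromosome 6 from 129267325 to 129275436, on the minus strand, 478 kb from Klrb1c, the gene of the sort marker NK1.1. No annotated gene overlaps it.

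The ratio of Cd69 to S1pr1 counts within a library was 2.59, 3.02 and 2.50 in CD8 beta+ libraries and 5.72, 11.4 and 4.87 in DN NK1.1+ libraries. The ratio does not depend on scaling between libraries, and it carries the lengths of both genes, so only its difference between libraries can be read. On the log2 scale it was 1.43 ± 0.14 and 2.77 ± 0.65, a difference of 1.34. The exact two-sided permutation test gave p = 0.1, the smallest that 3 against 3 libraries allow. DN NK1.1+ replicate 2 had the highest ratio, through both the lowest S1pr1 and the highest Cd69 of its group.

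**Figure D3:**
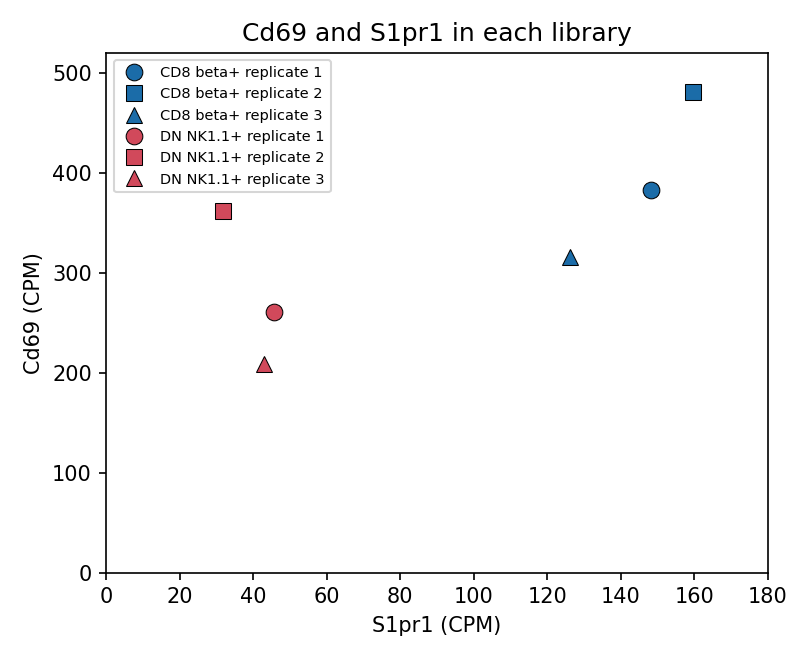
Cd69 against S1pr1 in CPM, with one point for each of the 6 libraries, in blue for CD8 beta+ and red for DN NK1.1+. The groups separate along the S1pr1 axis, at 126 CPM or more against 45.6 CPM or less, and overlap along the Cd69 axis.

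Of 7 tested genes in a list of CD69 partners and regulators, 0 were higher and 0 lower. At an unadjusted p under 0.05, edgeR gave 2 lower and 1 higher, and DESeq2 and limma-voom each called 0 in either direction. Lgals1, for galectin-1, a binding partner of CD69, was at 96.4 ± 20.5 and 102 ± 22.7 CPM. Slc7a5 and Slc3a2, whose products form an amino acid transporter that CD69 associates with, were at 55.9 ± 3.38 and 42.5 ± 6.82 CPM and at 169.7 ± 4.63 and 201 ± 9.004 CPM (edgeR adjusted p = 0.0851 and 0.0942). Without DN NK1.1+ replicate 3, Slc7a5 was called lower (edgeR adjusted p = 0.0267).

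Among the other lipid-sensing receptors, Gpr183 was lower, with the smallest SE of the 9 genes. It was at 149.9, 138.5 and 130.2 CPM in CD8 beta+ libraries and at 40.0, 42.6 and 44.0 CPM in DN NK1.1+ libraries. The groups lay far apart, and the coefficient of variation was 7.09% and 4.8%. The log2 fold change was −1.72 (SE 0.108, edgeR adjusted p = 2.92e-08), and it stayed between −1.78 and −1.68 when any one library was left out. B cells also carry Gpr183. Of 9 tested B cell markers, Cd79b was lower, Ighm was higher and 7 did not pass. The fitted fold change was below 0 for 7 of the 9, with a list median of −1.33 on the log2 scale. The Cd79b call ended without CD8 beta+ replicate 1 (edgeR adjusted p = 0.134) or DN NK1.1+ replicate 2 (0.0763). The B cell list summed to 191 to 300 and 289 to 347 CPM, most of it Ighm at 186 ± 31.4 and 271 ± 21.7 CPM. The defining B cell gene Ms4a1 was at 8.32, 15.1 and 2.78 CPM in CD8 beta+ libraries and 3.53, 3.77 and 0.228 CPM in DN NK1.1+ libraries (edgeR adjusted p = 0.333), and was called lower without a filter on low counts (0.0213) and with the replicate block (0.00269). The part of B cells in the Gpr183 difference was not tested.

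Gpr18, which lies near Gpr183, did not pass the test. Gpr18 was at 58.6, 59.2 and 66.7 CPM in CD8 beta+ libraries and at 52.0, 60.4 and 65.2 CPM in DN NK1.1+ libraries. All CD8 beta+ values lay within or just above the DN NK1.1+ range, with a log2 fold change of −0.06 (SE 0.126, edgeR adjusted p = 0.846). The ratio of Gpr183 to Gpr18 CPM within a library was 2.56, 2.34 and 1.95 in CD8 beta+ libraries and 0.769, 0.705 and 0.675 in DN NK1.1+ libraries. On chromosome 14 of mm10, Gpr18 (ENSMUSG00000050350) spans 121911253 to 121915781 and Gpr183 (ENSMUSG00000051212) spans 121952551 to 121965195, both on the minus strand and 36.8 kb apart. Both lie within the gene Ubac2 on the plus strand and share 0 exonic bases with it. Ubac2 was at 95.1 ± 4.87 and 118 ± 9.64 CPM (log2 fold change 0.31, edgeR adjusted p = 0.0605, or 0.0346 with scaling by library size only). Use of strand in counting is not given in the sources used here, and a part of Ubac2 reads in the receptor counts was not tested.

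Gpr55 was at 21.1, 30.2 and 29.2 CPM in CD8 beta+ libraries and at 11.0, 10.3 and 13.0 CPM in DN NK1.1+ libraries. CD8 beta+ replicate 1 was the lowest of its group and still above all DN NK1.1+ libraries. The log2 fold change was −1.24 (SE 0.210, edgeR adjusted p = 7.79e-04). Gpr55 (ENSMUSG00000049608) lies on chromosome 1 from 85938318 to 85961007, on the minus strand, and shares 71 exonic bases with 4933407L21Rik, which had 3 counts in CD8 beta+ libraries and 5 counts in DN NK1.1+ libraries in all.

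Of the 4 lower genes, 3 have an entry in the promoter sequences of RefSeq (build GRCm38.p6, the assembly of mm10), and S1pr1 has none. The 250 bases before the 3 starts are shown, 5′ to 3′ on the strand of the gene, because these genes were called lower. Capitals mark matches, on either strand, to the short KLF motif CACCC, to the FOXO motif GTAAACA or to the cyclic AMP response element TGACGTCA.
Gpr183, chr14:121965194-121965443, minus strand: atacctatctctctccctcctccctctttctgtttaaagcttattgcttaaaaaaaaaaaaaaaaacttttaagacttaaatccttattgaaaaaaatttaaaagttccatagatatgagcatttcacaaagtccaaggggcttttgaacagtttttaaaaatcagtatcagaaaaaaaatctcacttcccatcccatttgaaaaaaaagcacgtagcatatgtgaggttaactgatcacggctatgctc
Gpr55, chr1:85961056-85961305, minus strand: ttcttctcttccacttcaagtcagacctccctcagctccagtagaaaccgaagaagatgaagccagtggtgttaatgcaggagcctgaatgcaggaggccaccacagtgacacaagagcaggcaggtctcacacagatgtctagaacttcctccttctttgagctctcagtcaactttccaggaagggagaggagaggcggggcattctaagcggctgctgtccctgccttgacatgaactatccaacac
S1pr4, chr10:81500138-81500387, minus strand: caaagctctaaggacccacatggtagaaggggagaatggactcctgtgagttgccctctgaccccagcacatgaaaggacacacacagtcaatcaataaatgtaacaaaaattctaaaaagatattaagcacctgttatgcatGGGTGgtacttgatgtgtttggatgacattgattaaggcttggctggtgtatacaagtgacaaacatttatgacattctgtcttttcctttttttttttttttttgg
The only match was a KLF motif in S1pr4, on the opposite strand, whose first base lies at −107 from the start. Of 32851 promoter windows of this length, 52.0% held the KLF motif, 3.17% the FOXO motif and 1.55% the cyclic AMP element. Of the 7 members with an entry, S1pr5 and Ptger4, which did not pass the test, held 2 and 3 KLF matches, and Gpr18 and Ptger2 held 0. A match is a description of letters and not a binding site.

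The prostaglandin E2 receptors among the 9 genes did not pass the test. Ptger4 was at 167, 187 and 229 CPM in CD8 beta+ libraries and at 158, 156 and 176 CPM in DN NK1.1+ libraries. DN NK1.1+ replicate 3 lay above CD8 beta+ replicate 1, and the log2 fold change was −0.25 (SE 0.116, edgeR adjusted p = 0.189). Ptger2 was at 3.12, 4.19 and 3.81 CPM and at 3.36, 2.68 and 2.50 CPM, on 24 to 58 counts per library, with a log2 fold change of −0.38 (SE 0.460, edgeR adjusted p = 0.684). Ptger4 (ENSMUSG00000039942) lies on chromosome 15 from 5206661 to 5244187 and Ptger2 (ENSMUSG00000037759) on chromosome 14 from 44988195 to 45003820. Of the 6648 exonic bases of Ptger4, 82 are shared with Ttc33 and 1015 with the pseudogene Gm15937, which had 2 and 12 counts. Ptger2 shares 246 of 5193 exonic bases with the antisense gene Gm17173, at 1.66 ± 0.0991 and 0.787 ± 0.680 CPM.

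Per kilobase, Ptger4 made up 96.5 ± 0.696% of the 4 prostaglandin E2 receptor genes in CD8 beta+ libraries and 92.4 ± 0.658% in DN NK1.1+ libraries. Ptger3, for EP3, a receptor that lowers cyclic AMP, was at 2.34, 0.939 and 1.34 CPM in CD8 beta+ libraries and at 8.19, 7.71 and 8.27 CPM in DN NK1.1+ libraries, higher by 2.41 on the log2 scale (SE 0.437, edgeR adjusted p = 0.00131). Its groups did not overlap. Its share of the 4 genes was 0.935 ± 0.556% and 5.34 ± 0.219%.

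**Figure D4:**
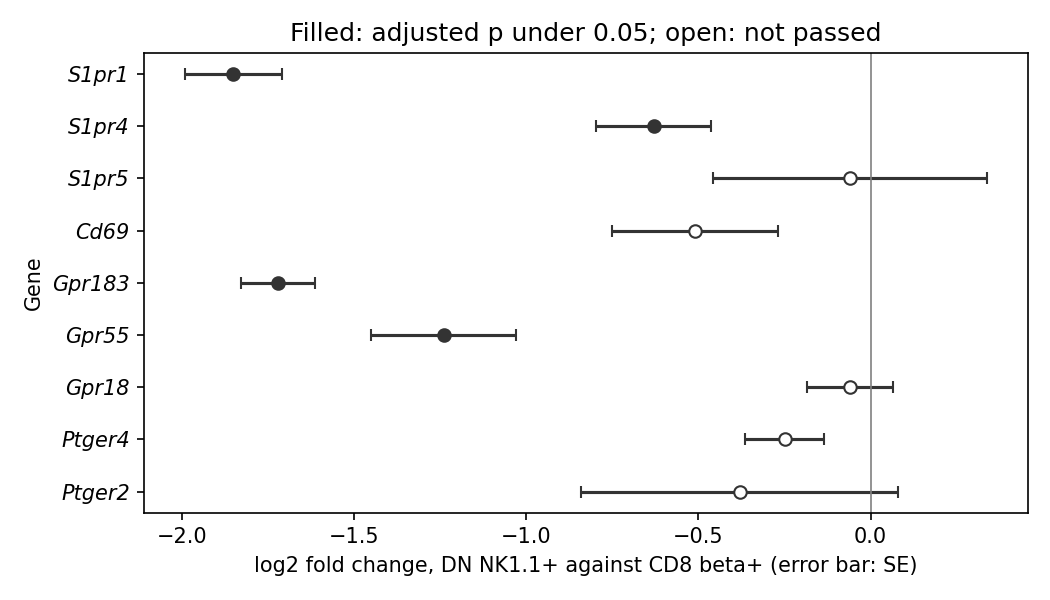
Log2 fold change of DN NK1.1+ against CD8 beta+ for the 9 genes, with SE as error bars, filled where the edgeR adjusted p was under 0.05. All 9 points lie below 0, from −1.85 for S1pr1 to −0.06 for S1pr5 and Gpr18, whose error bars span 0, as does that of Ptger2.

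The order of the members per kilobase differed between the groups. In CD8 beta+ libraries it was Cd69 at 60.4 ± 12.8, Gpr183 at 48.3 ± 3.43, S1pr1 at 47.5 ± 5.58, Gpr18 at 41.1 ± 3.01, Ptger4 at 29.2 ± 4.79, S1pr4 at 19.8 ± 0.673, Gpr55 at 7.21 ± 1.35, S1pr5 at 1.96 ± 0.686 and Ptger2 at 0.714 ± 0.105 CPM per kb. Neighbours overlapped in their library ranges from Cd69 down to Gpr18 and were apart below that. In DN NK1.1+ libraries it was Cd69 at 42.6 ± 11.96, Gpr18 at 39.5 ± 4.46, Ptger4 at 24.5 ± 1.63, Gpr183 at 14.6 ± 0.701, S1pr1 at 13.2 ± 2.41, S1pr4 at 12.8 ± 3.01, Gpr55 at 3.07 ± 0.374, S1pr5 at 1.87 ± 0.268 and Ptger2 at 0.549 ± 0.0873 CPM per kb. There Cd69 and Gpr18 overlapped, as did Gpr183, S1pr1 and S1pr4, and the other neighbours did not. Gpr183 and S1pr1, which followed Cd69 in the CD8 beta+ order, came behind Gpr18 and Ptger4 in the DN NK1.1+ order. With the longest transcript in place of merged exons, Ptger4 was at 51.5 and 43.2 CPM per kb and followed Cd69 directly in both groups.

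The surrounding pathways were described with 8 lists of 158 genes in all, of which 105 were tested, 20 were higher and 12 lower. Over all tested genes, 7.84% were higher and 5.99% lower, so both shares were larger in the lists. The lists were chosen with earlier results of these data known. The median log2 fold change of the 105 genes was 0.08, near that of all tested genes (−0.003). Without CD8 beta+ replicate 1, 13 list genes were higher and 10 lower.

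Genes of S1P supply and the other S1P receptors numbered 13 tested, of which 4 were higher and 1 lower (median log2 fold change 0.46). Plpp2, for a lipid phosphatase, was higher beside S1pr3, Cerk and Asah2, at 0.768 ± 0.323 and 4.03 ± 2.23 CPM (edgeR adjusted p = 0.0285), a call that ended in 5 alternatives, limma-voom (0.146) and leaving out CD8 beta+ replicate 1 (0.112) or 2 (0.105) or DN NK1.1+ replicate 2 (0.164) or 3 (0.11). The lower gene was Sgpp1, for a phosphatase of S1P, at 89.6 ± 2.50 and 70.5 ± 5.91 CPM (edgeR adjusted p = 0.0451), a call that ended when any one library was left out (edgeR adjusted p = 0.0508 to 0.201), with scaling by library size only (0.107), with limma-voom (0.0526) and without a filter (0.052). Cerk, for ceramide kinase, was higher, from 43.1 ± 4.14 to 74.8 ± 6.87 CPM (log2 fold change 0.79). Asah2, for a neutral ceramidase, was at 1.94 ± 0.310 and 5.61 ± 1.82 CPM (log2 fold change 1.53, edgeR adjusted p = 0.0359), and its call ended with limma-voom (0.0613) and without CD8 beta+ replicate 1 (0.0893), 2 (0.127) or 3 (0.05) or DN NK1.1+ replicate 2 (0.0953) or 3 (0.172). Sgpl1, for S1P lyase, which degrades S1P, was at 66.7 ± 8.65 and 62.1 ± 3.03 CPM and did not pass (edgeR adjusted p = 0.69). Fewer than 4 higher genes, 2 in each case, were called without CD8 beta+ replicate 1 or 2 or without DN NK1.1+ replicate 2 or 3.

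Of 24 tested genes of S1P receptor signalling and trafficking, 6 were higher and 3 lower (median 0.01). The lower genes were Klf2, Foxo1 and Rac2, for a GTPase of cell migration, which was at 958 ± 103 and 686 ± 87.1 CPM. The Rac2 call ended without DN NK1.1+ replicate 1 or 2 (edgeR adjusted p = 0.0639 and 0.0667). Grk5, for a kinase that desensitizes G protein-coupled receptors, was higher, from 9.15 ± 4.12 to 25.03 ± 4.33 CPM (log2 fold change 1.44), and so was Arrb1, for an arrestin, from 25.9 ± 3.21 to 42.0 ± 0.617 CPM (0.69). Gnaq, for a G protein alpha subunit, rose from 7.55 ± 1.91 to 16.4 ± 1.55 CPM. Grk2, for the kinase that acts on S1PR1 in blood, was at 248 ± 20.01 and 221 ± 21.1 CPM (edgeR adjusted p = 0.358), and the inhibitory G protein gene Gnai2 was at 400.4 ± 31.8 and 418 ± 45.2 CPM (edgeR adjusted p = 0.775).

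Enzymes that make and degrade the oxysterol ligand of GPR183 had few counts in both groups. Ch25h had 11 and 3 counts in all, Cyp7b1 had 0 and 0, Hsd3b7 had 3 and 17 and Cyp27a1 had 20 and 21. Of 5 tested genes in this list, Abcg1, for a sterol exporter, was lower, from 97.7 ± 21.4 to 60.6 ± 8.19 CPM (log2 fold change −0.69, edgeR adjusted p = 0.00923), and 0 were higher. Its call was lost without CD8 beta+ replicate 1 (edgeR adjusted p = 0.0539), DN NK1.1+ replicate 1 (0.0536) or DN NK1.1+ replicate 2 (0.056).

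Of 12 tested genes of prostaglandin synthesis and reception, 1 was higher and 2 lower (median 0.00). The higher gene was Ptger3, described above. Tbxa2r, for the thromboxane receptor, had the largest decrease in all 8 lists. It was at 10.9, 6.29 and 6.18 CPM in CD8 beta+ libraries and at 0.690, 0.168 and 0.759 CPM in DN NK1.1+ libraries (log2 fold change −3.82, SE 0.570, edgeR adjusted p = 2.53e-04), on 231 and 20 counts in all. Every CD8 beta+ library was far above every DN NK1.1+ library. Abcc4, for a transporter that exports cyclic AMP and prostaglandins, was lower, from 32.0 ± 5.82 to 18.0 ± 2.62 CPM. The synthase genes Ptgs1 and Ptgs2 were at 2.84 ± 1.34 and 2.29 ± 1.20 CPM and at 2.19 ± 3.13 and 2.71 ± 1.72 CPM and did not pass.

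Of 20 tested genes of cyclic AMP signalling, the pathway below EP2 and EP4, 3 were higher and 3 lower (median 0.16). All 3 lower genes encode phosphodiesterases, which degrade cyclic AMP: Pde4d fell from 95.4 ± 12.6 to 38.3 ± 7.91 CPM, Pde7a from 300.1 ± 16.1 to 213 ± 25.8 CPM and Pde4b from 226 ± 26.5 to 170.4 ± 15.8 CPM. The Pde4b call ended without CD8 beta+ replicate 2 (edgeR adjusted p = 0.0671), CD8 beta+ replicate 3 (0.0661) or DN NK1.1+ replicate 1 (0.119), and with scaling by library size only (0.0528). Another phosphodiesterase gene, Pde4a, went the other way, at 12.1, 11.1 and 13.5 CPM against 37.8, 38.5 and 39.6 CPM (log2 fold change 1.66, SE 0.172, edgeR adjusted p = 7.33e-06). Per gene, the Pde4 family thus changed in opposed directions. Crem, for a transcription factor that cyclic AMP induces, rose from 110.0 ± 14.5 to 249 ± 19.5 CPM (log2 fold change 1.18, edgeR adjusted p = 2.94e-06), with no overlap.

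Of 16 tested genes for other lipid-sensing receptors, 5 were higher and 2 lower (median 0.09). Gpr34, for a receptor of lysophosphatidylserine, rose from 18.0 ± 4.38 to 44.2 ± 2.50 CPM (log2 fold change 1.29). P2ry10, of the same ligand class, was at 410 ± 54.2 and 595 ± 70.0 CPM (0.54), and was no longer called without CD8 beta+ replicate 1 (edgeR adjusted p = 0.0534). Gpr174, also for a receptor of lysophosphatidylserine, fell from 97.8 ± 14.2 to 65.7 ± 3.71 CPM (−0.58). These 3 receptors assigned to one ligand class therefore did not share a direction. P2ry10b, close to P2ry10 by name and in the same list, had means of 13.2 and 11.9 CPM and did not pass (edgeR adjusted p = 0.787). Gpr132, for a receptor of oxidized and lysolipids, fell from between 147.2 and 151.4 to 104.9 ± 9.47 CPM (−0.51). Cmklr1, for a chemerin and lipid receptor, rose from 6.51 ± 0.689 to 14.9 ± 3.92 CPM (1.20). Cysltr2, for a leukotriene receptor, was at 18.4 ± 2.06 and 28.6 ± 0.933 CPM (0.63, edgeR adjusted p = 0.024), and this call ended without CD8 beta+ replicate 1 (0.108) or 3 (0.0581) or DN NK1.1+ replicate 1 (0.0815) or 2 (0.0616). Without CD8 beta+ replicate 1, 3 genes of the list were higher. Of 8 tested genes for synthesis of other lipid mediators, Lta4h, for an enzyme of leukotriene B4 synthesis, was higher, from 103 ± 13.8 to 145 ± 5.97 CPM (0.49), and 0 were lower. Leaving out CD8 beta+ replicate 1 ended the Lta4h call (edgeR adjusted p = 0.0546).

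**Figure D5:**
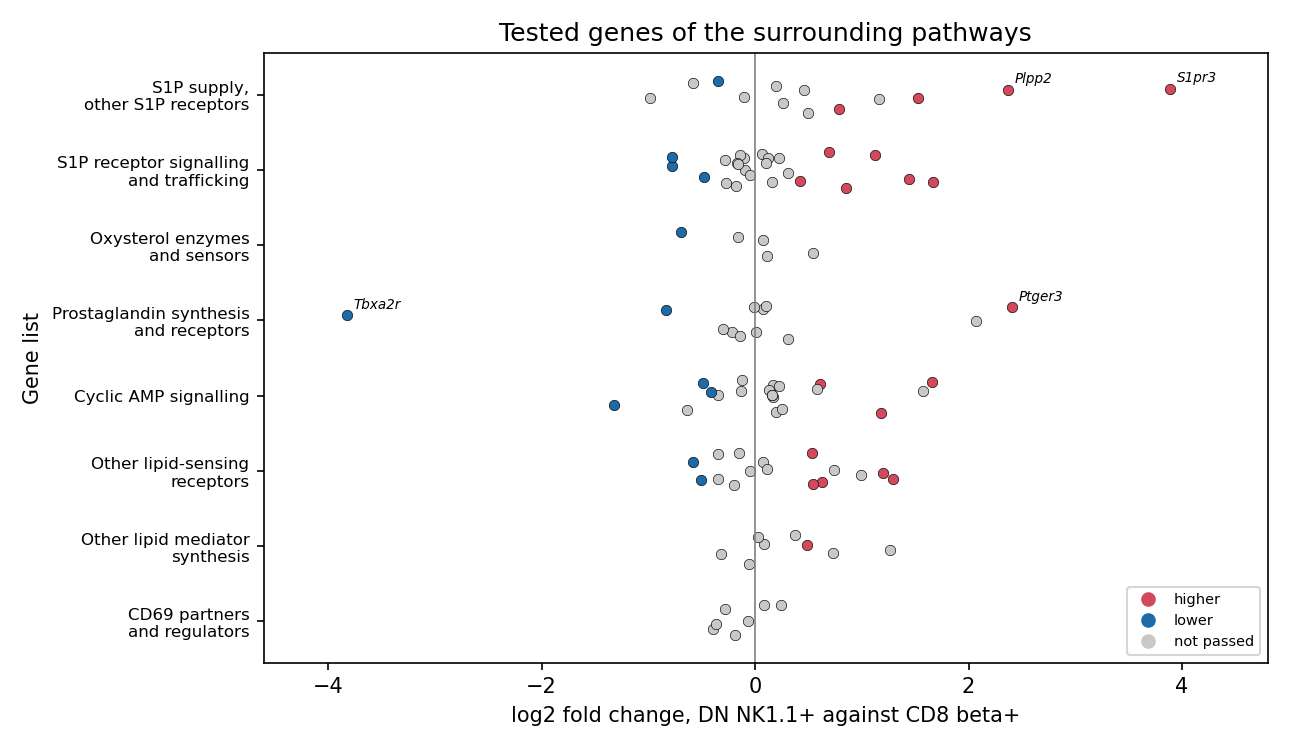
Log2 fold change of every tested gene in the 8 pathway lists, one row per list and one point per gene, with higher genes in red, lower genes in blue and genes that did not pass in grey. Genes are named where they were called and changed by over 2 on the log2 scale, with S1pr3 at 3.89 and Tbxa2r at −3.82 at the ends.

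Genes with patterns most like those of S1pr1 and Cd69 were sought among 5724 protein-coding genes with a mean of at least 20 CPM, by the root mean square (RMS) difference of log2 CPM centred over the 6 libraries. For S1pr1 the nearest were Gramd3 (RMS difference 0.159), Grap2 (0.185), for an adaptor of T cell receptor signalling, and Cd28 (0.190), for the costimulatory receptor. These were at 641 ± 30.2 and 175 ± 5.35 CPM, at 300 ± 10.9 and 92.9 ± 10.2 CPM, and at 253 ± 17.1 and 74.3 ± 1.71 CPM. For Cd69 the nearest were Nkapd1 (0.081), Itpr1 (0.129), for a calcium release channel, and Snx20 (0.139), at 24.0 ± 3.97 and 16.9 ± 3.36 CPM, at 102 ± 12.6 and 66.2 ± 11.1 CPM, and at 40.4 ± 4.402 and 27.8 ± 4.34 CPM. With 6 libraries in 2 groups, likeness mostly reflects the difference between the groups.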

How the data were processed

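Bulk RNA sequencing counts of 6 libraries (RNeasy Micro extraction and Tecan Solo mouse kit, per the labels' protocols) were analysed; the single-cell libraries of the same series were not used here. The authors deposited estimated counts (expected counts) per gene, a unit read from the values as deposited: 8.43% of values are not whole and column totals differ. The build is mm10 and the tools include Cell Ranger 7.1.0, per the submitters' processing notes; for the bulk data the aligner, counter, annotation and strand setting were not given in the sources used here. All 55450 identifiers and symbols matched GENCODE M21, which gave positions and lengths.

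Counts were rounded and tested with edgeR 4.0.16 (TMM, robust quasi-likelihood fit, group only) after filterByExpr (minimum count 10, minimum total 15), with Benjamini-Hochberg adjustment over all tested genes and a threshold of 0.05. The SE is the fold change divided by the root of F. CPM used TMM-scaled library sizes. The Cd69 to S1pr1 ratio was tested by exact two-sided permutation. The steps were tested on simulated data. DESeq2 1.42.0, limma 3.58.1, other scalings, filters, a replicate block and leaving out each library were alternatives. No 2 libraries were near copies.

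The members and lists were chosen with earlier results of these data known. The rule named, per pathway list, the 3 called genes that changed most among those at 5 CPM or more in the higher group, per marker list the most abundant gene, the sort genes, genes overlapping a member and, for S1pr1 and Cd69, the 3 most alike genes. Every other named gene was chosen after its values were seen. One gene that the rule named is not reported here. Myl12b, whose symbol 2 identifiers share, and Oxer1, with no match, were left out of their lists.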

Additional observations from a re-analysis of the deposited data

How the results depend on the processing

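Of 126 member fold changes recomputed under alternatives, 115 kept their direction and side of the threshold. S1pr1, Gpr183 and Gpr55 stayed lower in all alternatives. S1pr4 ranged from −0.84 to −0.52 (log2) when 1 library was left out, Cd69 from −0.75 to −0.34, S1pr5 from −0.27 to 0.25 and Gpr18 from −0.13 to 0.03. Cd69 passed without a filter (−0.51) and with the replicate block (−0.52). S1pr5 turned to 0.04 with limma-voom. Leaving out 1 library gave 681 to 1093 genes higher and 499 to 883 lower over all genes, the lowest without CD8 beta+ replicate 1, and 13 to 19 pathway genes higher. Among other named genes that did not pass, leave-out ranges crossed 0 for Satb1 (−0.47 to 0.09), Ptprc (−0.01 to 0.13), Col3a1 (−1.66 to 0.84), Csn2 (−0.47 to 0.82), Acta2 (−2.13 to 1.92, and −0.10 with the block), Cd4 (−1.23 to 0.86), Lgals1 (−0.10 to 0.26), Gnai2 (−0.03 to 0.13), Ptgs1 (−0.80 to 0.04) and Ptgs2 (−0.26 to 2.58). With the longest transcript, levels in CPM per kb (CD8 beta+, then DN NK1.1+) were 79.19 and 55.79 for Cd69, 1.006 and 0.7733 for Ptger2, 51.49 and 43.24 for Ptger4, and 15.49 for Gpr183 in DN NK1.1+ libraries, which follows from the shorter lengths. Otherwise the cause was not tested.

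Deviations from the group means correlated at −0.05, 0.189 and 0.256 between same-numbered libraries 1, 2 and 3. Between libraries of different numbers they correlated at −0.254 to 0.106. Replicates 2 and 3 thus lay above every pair of different numbers, and replicate 1 did not. Whether same-numbered libraries share a source was not tested. The replicate block gave 1137 genes higher and 945 lower and 5 members lower. With 24 to 71 counts per library, S1pr5 and Ptger2 could show only large changes. No scaling moved the median of all genes by over 0.1.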
